A study of Rattus norvegicus with 24 samples.

Results

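Trib3 encodes tribbles pseudokinase 3, a kinase-like protein that binds other proteins rather than acting as an active kinase. Its transcript was followed across all 6 conditions of a study of the antiretroviral dolutegravir (DTG) in primary rat oligodendrocyte precursor cells (OPCs) and oligodendrocytes (OLs), the myelin-forming cells of the central nervous system. It is 1 gene, identifier ENSRNOG00000007319, of the 32883 genes listed in most of the deposited files, and it was selected by its identifier after its rise in DTG-treated OLs was known. The values that chose it are therefore given as a description, with no test, and for Trib3 itself adjusted p-values are given only for comparisons that use none of the libraries of that contrast.

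OPCs and OLs were primary cells from newborn Sprague Dawley rat cortex, with 4 libraries in each condition and 24 in all. OPCs were collected after 24 hours of proliferation, either untreated, with the vehicle DMSO at 0.04%, or with 8 µM DTG, the plasma peak concentration in the study's account. OLs went through the same 24 hours of proliferation and then 72 hours of differentiation, and their untreated, DMSO or DTG condition was kept throughout both stages. In the study's methods OPCs grew in a medium with added growth factors, and differentiation began with a change to another medium. Every comparison of OLs with OPCs below is therefore also a comparison of media, and stage and medium cannot be told apart. DTG-treated OLs differed from DTG-treated OPCs in stage, in medium and in length of exposure, and these cannot be told apart either. The study counted cells prepared from independent litters as separate replicates. Same-numbered libraries of all 6 conditions share the date at the start of their names, with an added letter that separates replicates 2 and 3, which have 1 date. Ratios within a replicate number are therefore given below. The names do not state a litter, and that each number is 1 litter is an assumption.

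Cells respond to amino acid shortage, unfolded protein in the endoplasmic reticulum (ER), heme shortage or double-stranded RNA with the integrated stress response (ISR), in which phosphorylation of the translation factor eIF2 lowers general protein synthesis and favours translation of the transcription factor ATF4. ATF4 raises genes of amino acid uptake and synthesis, redox balance and growth control, and Trib3 is one of its known targets. The TRIB3 protein binds ATF4 and can hold back its activity, and it is also known to bind the ubiquitin ligase COP1.

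In the annotation of most files Trib3 lies on chromosome 3, minus strand, from 147813473 to 147819571, with 4 exons that sum to 1935 bases, of which the last exon holds 1277. The submitters' notes name the build Rnor_6.0. No other listed gene overlaps it, and the nearest listed neighbour is 3554 bases away. The files of replicate 3 of untreated OPCs and untreated OLs used another annotation, in which Trib3 lies on chromosome 3 from 140809043 to 140814497 with 3 exons that sum to 1854 bases, and every comparison that includes untreated cells used the 21651 identifiers present in both.

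The promoter of Trib3 is shown because the binding core of ATF4 stands close to the start of the gene. The sequence is from RefSeq, build GRCr8, minus strand, at chr3:161275534-161275783, and covers the 250 bases before the annotated start. Capitals mark a match to the ATF4 response element core, searched as TGATGNAA on both strands.
Trib3 promoter: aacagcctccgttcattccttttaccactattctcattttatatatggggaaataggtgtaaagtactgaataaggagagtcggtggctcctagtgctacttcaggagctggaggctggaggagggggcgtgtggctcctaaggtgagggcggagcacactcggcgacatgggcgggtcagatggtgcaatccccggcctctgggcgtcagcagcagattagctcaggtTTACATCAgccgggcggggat

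The site is TTACATCA on the gene's strand, the core read on the opposite strand, and its first base lies at -21 from the start. The search covered 300 bases of each gene, the 250 before the start and 50 after it, and the core occurred in 1332 of 33469 RefSeq windows, 3.98%. Among the amino acid and one-carbon genes known as ATF4 targets, 3 of 15 windows found in RefSeq held it, namely Chac1, Pck2 and Slc7a1. Among the aminoacyl-tRNA synthetases, which charge tRNAs with amino acids and include known ATF4 targets, 7 of 11 held it, 2 of them only after the start. It stood in 1 of 7 windows of the signalling and secreted targets, Fgf21, 1 of 7 of the stress transcription factors, Nupr1, 1 of 8 of the genes of eIF2, its kinases and its phosphatase, Ppp1r15b, 1 of 14 of the ER chaperone and degradation genes, Herpud1, and 0 of 10 of the TRIB3 protein partners. The ER stress response element, CCAAT and CCACG separated by 9 bases, was searched on both strands. It was found in 0.0657% of windows and in 6 of 14 windows of ER chaperone and degradation genes, Calr, Creld2, Dnajc3, Hsp90b1, Hspa5 and Xbp1, and these letters were not in the Trib3 window. A match is a description of letters and not a measured binding site.

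Trib3 was a weakly expressed gene in 5 of the 6 conditions and a moderately expressed gene in DTG-treated OLs. The 24 libraries held 13241279 to 18499994 gene counts each, and 1821 of these counts in all fell on Trib3, 1487 of them in the 4 libraries of DTG-treated OLs. Levels are given as CPM, counts scaled to the same library total, after TMM scaling, a method that sets libraries to a common composition. These levels and the ratios within replicate numbers used the 21651 shared identifiers in all conditions. Fitted fold changes of comparisons without untreated cells used the genes listed in most files. In bulk samples a change in the share of cells of 1 type and a change in RNA per cell cannot be told apart.

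In DMSO-treated OPCs the Trib3 level was 0.390, 0.496, 0.409 and 1.18 CPM in replicates 1 to 4, from 6, 7, 8 and 16 counts, with a mean of 0.618 ± 0.375 CPM (SD, n = 4). In untreated OPCs it was 0.693, 0.518, 0.236 and 1.38 CPM, with a mean of 0.706 ± 0.485 CPM. In DTG-treated OPCs it was 2.06, 1.20, 0.799 and 1.96 CPM, with a mean of 1.505 ± 0.606 CPM. Counting error alone is wide at these levels: the exact Poisson 95% interval of the lowest library, untreated OPC replicate 3 with 4 counts, runs from 0.0642 to 0.604 CPM, and such intervals cover counting error only.

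In untreated OLs the Trib3 level was 1.49, 0.346, 1.25 and 0.860 CPM, with a mean of 0.986 ± 0.499 CPM (SD, n = 4). In DMSO-treated OLs it was 1.22, 1.13, 2.01 and 2.36 CPM, with a mean of 1.68 ± 0.601 CPM. In DTG-treated OLs it was 52.5, 18.6, 26.2 and 16.2 CPM, from 687, 204, 336 and 260 counts, with a mean of 28.4 ± 16.6 CPM. The lowest of these 4 libraries lay above each of the other 20 libraries of the series, the highest of which was DMSO-treated OL replicate 4.

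**Figure D1:**
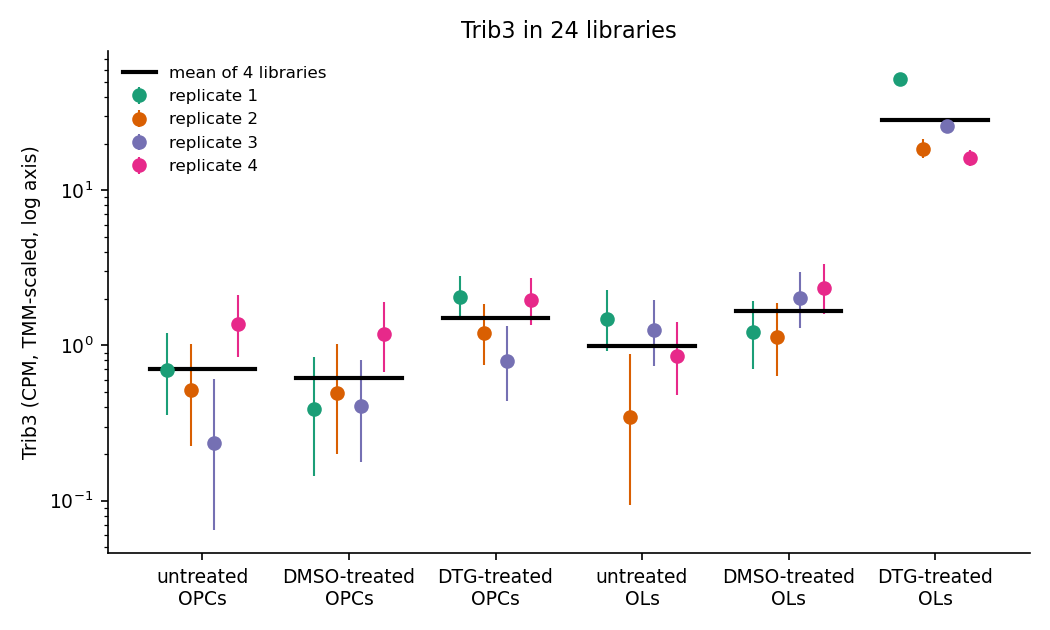
Trib3 level in each of the 24 libraries, in TMM-scaled CPM on a log axis, by condition. Points are libraries coloured by replicate number, vertical lines are exact Poisson 95% intervals of the count, and black bars are means of 4 libraries. The 4 DTG-treated OL libraries sit between 16.2 and 52.5 CPM, and the other conditions overlap each other below 2.4 CPM.

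The order of the mean levels was DTG-treated OLs, DMSO-treated OLs, DTG-treated OPCs, untreated OLs, untreated OPCs and DMSO-treated OPCs. The top mean was 16.9 times the second. Below it, each neighbouring pair differed by 1.12 to 1.53 times in the mean, and the libraries of both conditions overlapped in every such pair. Scaled to ERCC transcripts, synthetic RNA spiked into the same amount of total RNA of each library, the top mean was 8.30 times the second, which was then that of DTG-treated OPCs at 2.92 CPM, above DMSO-treated OLs at 1.02 CPM.

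Per length of transcript, Trib3 stood at 0.867 ± 0.310 RPKM (CPM per kilobase of exon) in DMSO-treated OLs and at 14.7 ± 8.60 RPKM in DTG-treated OLs (SD, n = 4). Among 14046 genes with enough counts, 17.9% had a lower mean RPKM than Trib3 in DMSO-treated OLs and 62.9% in DTG-treated OLs. In OPCs these shares were 6.44% with DMSO and 13.1% with DTG. The median gene had 6.78 RPKM in DMSO-treated OLs and 7.07 RPKM in DTG-treated OLs, so Trib3 lay under the median gene with DMSO and above it with DTG.

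In OLs the transcript was higher with DTG in each of the 4 replicates, and this is the contrast for which the gene was chosen. The log2 fold change of DTG-treated against DMSO-treated OLs was 4.08 with an SE of 0.42, from edgeR's quasi-likelihood fit on counts. Within replicates 1 to 4 the ratio of the levels was 43.2, 16.4, 13.03 and 6.89. Replicate 1 had the highest DTG-treated level, 52.5 CPM, and without that library the log2 fold change was 3.60. Replicate 4 had the smallest ratio, from the highest DMSO-treated level and the lowest DTG-treated level of the 4 replicates. Against untreated OLs the log2 fold change was 4.81 with an SE of 0.50, and the ratios within replicates ran from 18.9 to 53.7.

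In OPCs DTG-treated cells held more Trib3 than DMSO-treated cells in each replicate, but the difference did not pass the test across all genes. The ratios were 5.28, 2.43, 1.95 and 1.67 in replicates 1 to 4, and the groups overlapped, since the DMSO-treated library of replicate 4 at 1.18 CPM lay above the DTG-treated library of replicate 3 at 0.799 CPM. The log2 fold change was 1.33 with an SE of 0.46 and an adjusted p-value of 0.907 (edgeR quasi-likelihood, Benjamini-Hochberg over 13270 genes), and the exact two-sided permutation test on log2 CPM gave p = 0.0571, where 4 against 4 libraries can reach 0.0286. No gene was called in this comparison, 0% of those tested, where a call needs both an adjusted p-value below 0.05 and a log2 fold change beyond 1 in either direction. DESeq2 called 0 genes as well, and 69 genes in edgeR and 114 in DESeq2 had an unadjusted p-value under 0.05. With replicates as a block edgeR called 0 genes and had 871 under that value, and without DMSO-treated OPC replicate 3 it called 0 and had 882.

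Scaled to the ERCC transcripts, the OPC groups no longer overlapped. DTG-treated OPCs then held 2.25 to 3.86 CPM of Trib3 and DMSO-treated OPCs 0.627 to 1.19 CPM, and the log2 fold change was 1.86 with an adjusted p-value of 0.779 in edgeR. Over all genes tested in OPCs this scaling moved the median to 0.38 on the log2 scale.

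Replicate 1 had the highest DTG to DMSO ratio in both OPCs and OLs, with TMM and with ERCC scaling. The order of the other replicates depended on the scaling. With ERCC scaling the ratios in replicates 1 to 4 were 33.8, 17.2, 31.7 and 14.3 in OLs and 5.57, 4.00, 1.89 and 3.55 in OPCs. With TMM scaling replicate 2 came second, replicate 3 next and replicate 4 last in both stages. Under DTG, with TMM scaling, replicate 4 had the lowest level in OLs and the second highest in OPCs.

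**Figure D2:**
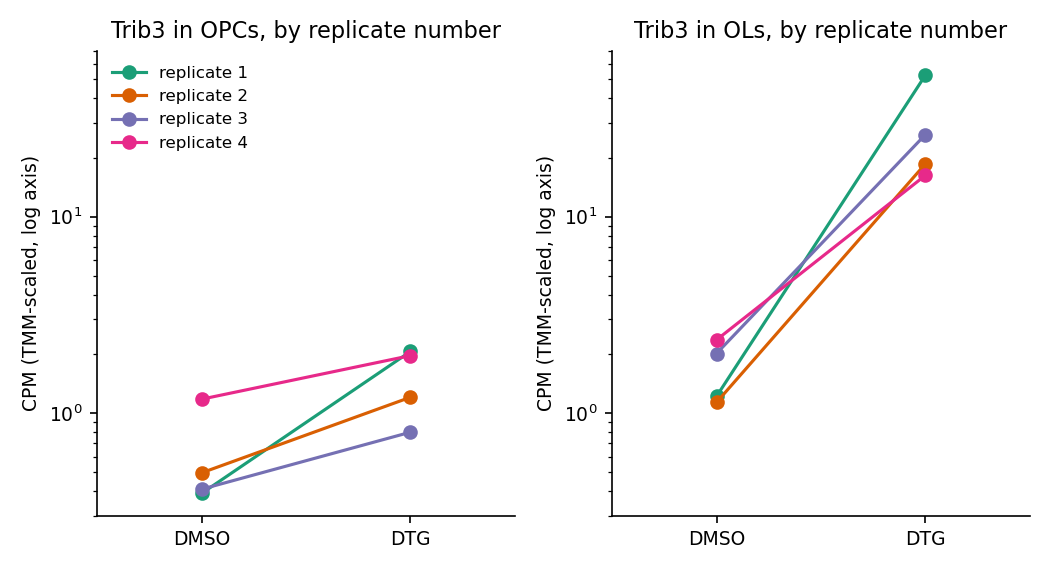
Trib3 level in DMSO-treated and DTG-treated cells with the same replicate number, in TMM-scaled CPM on a log axis shared by both panels, with OPCs on the left and OLs on the right. Each line is a replicate number. All 8 lines go up, by 1.67 to 5.28 times in OPCs and by 6.89 to 43.2 times in OLs.

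Without drug, the stages were compared under DMSO and without treatment, and whether the 2 differences differ from each other was not tested. Under DMSO the level was higher in OLs than in OPCs of each replicate, by 3.12, 2.28, 4.91 and 2.00 times, and the log2 fold change was 1.48 with an SE of 0.43, a description because it uses the DMSO-treated OLs of the contrast that chose the gene. The highest DMSO-treated OPC library, 1.18 CPM, lay above the lowest DMSO-treated OL library, 1.13 CPM. Between untreated OPCs and untreated OLs the ratios were 2.15, 0.668, 5.30 and 0.626, higher in OLs in 2 of 4 replicates. The log2 fold change was 0.52 with an SE of 0.55 and an adjusted p-value of 0.487 (edgeR quasi-likelihood), and the exact two-sided permutation test gave p = 0.457.

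Scaled to ERCC counts, the log2 fold change of Trib3 with differentiation was 0.10 under DMSO and -0.33 without treatment. The same scaling moved the median of all genes tested from -0.12 to -1.52 under DMSO and from -0.10 to -1.002 without treatment. The OLs had 1.86% to 7.19% of their counts on ERCC transcripts and the OPCs 1.06% to 3.45%. Of the genes tested, 32.6% were called with differentiation under DMSO and 24.9% without treatment, of which 1831 were higher and 2414 lower under DMSO and 1404 higher and 1626 lower without treatment. With ERCC scaling the split was 266 higher and 6696 lower under DMSO, and 381 higher and 3757 lower without treatment.

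In OPCs the vehicle alone gave no detectable difference at this depth. DMSO-treated against untreated levels had ratios of 0.562, 0.957, 1.74 and 0.855, and the exact two-sided permutation test gave p = 0.914. With 6 to 16 counts in DMSO-treated libraries and 4 to 20 in untreated ones, Trib3 did not pass edgeR's filter on low counts in this comparison, so no fitted value is given, and 0% of the 12182 genes tested were called. edgeR had 73 genes and DESeq2 48 genes at an unadjusted p-value under 0.05, and DESeq2 called 0. In OLs, DMSO-treated cells held 0.817, 3.27, 1.61 and 2.74 times the untreated level, with a log2 fold change of 0.69 and an SE of 0.41, given as a description. With ERCC scaling this fold change was 0.17 with an SE of 0.64, where the median of all genes tested moved from -0.04 to -0.50.

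Under DTG the stages lay far apart. DTG-treated OLs held 25.5, 15.4, 32.8 and 8.28 times the Trib3 level of DTG-treated OPCs in replicates 1 to 4, and the log2 fold change was 4.21 with an SE of 0.45. With ERCC scaling it was 2.99, where the median of all genes tested moved from -0.11 to -1.36.

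**Figure D3:**
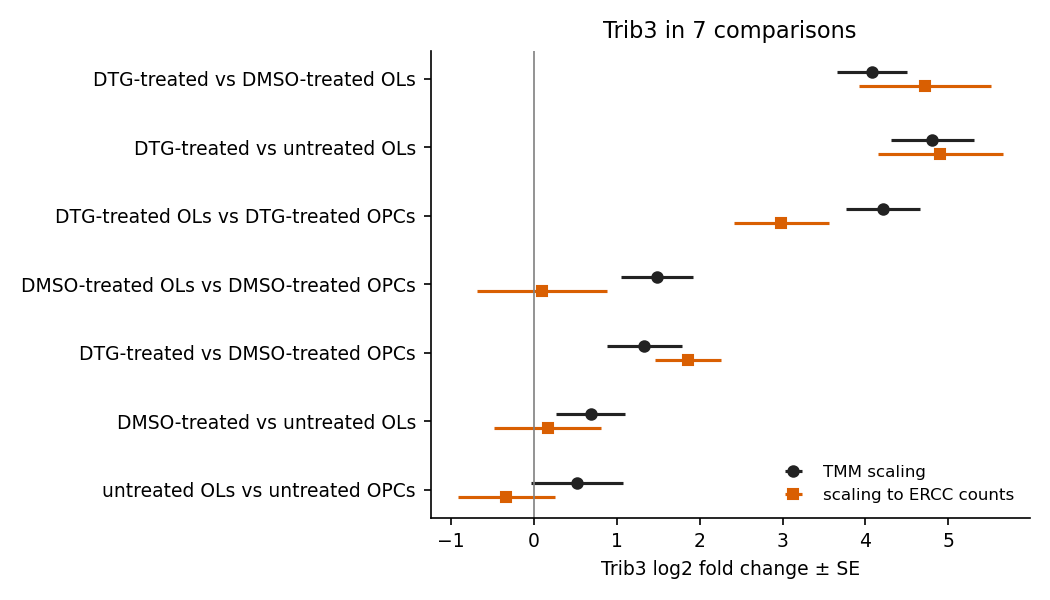
Trib3 log2 fold change with its SE in 7 comparisons, with TMM scaling as circles and ERCC scaling as squares. Comparisons that include DTG-treated OLs lie between 2.99 and 4.90, and the stage comparison of untreated cells lies at 0.52 with TMM and at -0.33 with ERCC scaling.

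The identified stage markers followed the labels. Their symbols come mainly from genes the study called on these samples, by stage among others, so this match does not test the labels. Of 8 listed OL markers 3 were identified, Mbp, Mog and Enpp6, and of 7 listed OPC markers 2, Pdgfra and Cspg4. The OL markers summed to 4541 to 11959 CPM in DMSO-treated OLs and 151 to 322 CPM in DMSO-treated OPCs. The OPC markers summed to 176 to 351 CPM in DMSO-treated OLs and 561 to 1117 CPM in DMSO-treated OPCs. In DTG-treated OLs, where Trib3 was highest, the OL markers summed to 1807 to 4561 CPM and the OPC markers to 136 to 325 CPM. The neuronal markers Snap25 and Stmn2, 2 of the 6 listed, summed to 26.3 to 52.8 CPM in DMSO-treated OPCs, 28.4 to 54.8 CPM in DTG-treated OPCs, 3.93 to 9.36 CPM in DMSO-treated OLs and 2.49 to 9.47 CPM in DTG-treated OLs. The vessel marker Rgs5, 1 of 6 listed, was at 0 in 2 of 4 DTG-treated OL libraries and at most 5.83 CPM in any DMSO-treated OPC library. The part of these cells in the stage comparisons of Trib3 was not tested, and microglial and astrocyte markers were not analysed here because no source used here ties their symbols to identifiers.

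The other tribbles gene that could be identified, Trib1, encodes a related pseudokinase that also binds COP1. Symbols come mainly from genes the study called on these samples, by stage among others. The stage change of Trib1 under DMSO is therefore not independent evidence. Trib1 fell by 2.42 on the log2 scale (SE 0.26) from DMSO-treated OPCs to DMSO-treated OLs and by 2.70 (SE 0.29) from untreated OPCs to untreated OLs, with adjusted p-values of 1.24e-05 and 0.000124 in edgeR. With DTG in OLs its log2 fold change was 0.84 with an SE of 0.23 and an adjusted p-value of 0.123, and 0.0431 with replicates as a block, where the fold still missed the threshold. Its level was 1.40 to 2.62 times higher with DTG in the 4 replicates of OLs and 0.781 to 1.22 times in OPCs.

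Genes around Trib3 in the ISR were identified through symbols that the study printed for genes it had called on these samples, DTG-treated OLs among them. A call in these same libraries could thus bring a gene into the lists. The counts of calls, the directions and the fold changes in OLs below are therefore not independent evidence. The values over all genes beside them include genes without a symbol, and are not a like background. Of 8 listed stress transcription factors 5 could be identified, of 17 amino acid and one-carbon targets of ATF4 10, and of 10 signalling and secreted targets 4. Of these 19 genes 15 were called higher in DTG-treated than in DMSO-treated OLs and 0 lower, beside 0.582% of all 12710 genes tested. Their median log2 fold change was 1.55, beside 0.01 for all genes tested. With replicates as a block 18 of the 19 were called, and with ERCC scaling, which changed the calls over all genes from 47 higher and 27 lower to 19 higher and 0 lower, 9 were. Without DMSO-treated OL replicate 2 the calls over all genes dropped from 74 to 28 and those among the 19 genes from 15 to 11.

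Atf4 itself rose from 168 to 366 CPM in OLs, a log2 fold change of 1.12 with an SE of 0.16. Atf3, a stress-induced factor of the same family, had a log2 fold change of 1.96 (SE 0.25) and Atf5, another member that is translated under ISR control, 1.45 (SE 0.27). Cebpb and Cebpg, which encode partners that pair with ATF4, had log2 fold changes of 1.29 and 0.71 and adjusted p-values of 0.118 and 0.0954 in edgeR, and with replicates as a block 0.00552 and 0.00923. Each of these folds was smaller than that of Trib3 in the same libraries, which the choice of Trib3 on this contrast favours.

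Among the amino acid genes, Slc7a11, which imports cystine, had a log2 fold change of 2.49 (SE 0.22), and Chac1, which breaks down glutathione, 2.43 (SE 0.27). Asns, asparagine synthetase, rose from 48.1 to 186 CPM with a log2 fold change of 1.95 (SE 0.22). Slc7a3 and Slc7a1, importers of cationic amino acids, had 2.29 and 1.29, and Pck2, mitochondrial phosphoenolpyruvate carboxykinase, had 1.51. Aldh1l2 and Cth, of mitochondrial folate metabolism and cysteine synthesis, did not pass with adjusted p-values of 0.093 and 0.123 in edgeR, and did with replicates as a block.

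All 4 identified signalling and secreted targets rose in OLs. Gdf15, a secreted stress hormone, had the largest log2 fold change of the 19 genes, 3.16 with an SE of 0.33. Stc2, a secreted glycoprotein, had 2.48 (SE 0.35), Eif4ebp1, which restrains cap-dependent translation, 2.05 (SE 0.27) and Sesn2, a leucine sensor that restrains mTORC1, 1.33 (SE 0.18). In each of replicates 1 to 3 the Trib3 ratio in OLs was above that of each of the 19 genes. In replicate 4 it was below that of 1, Gdf15, at 8.78. Trib3 was chosen on its rise in these libraries, so its place above the 19 genes is a description only.

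With TMM scaling replicate 1, which had the highest Trib3 ratio in OLs, also had the highest ratio for 15 of the 19 genes, beside 26.9% of the 12536 genes with counts in all 8 libraries. With ERCC scaling this was so for 1 of the 19 genes and 0.542% of all, so for these genes the place of replicate 1 rests on the scaling. With TMM scaling the median ratio of the 19 genes was 5.29 in replicate 1, 2.84 in replicate 2, 2.53 in replicate 3 and 2.85 in replicate 4. Replicates and library dates cannot be told apart here except for replicates 2 and 3.

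In OPCs 0 of the 19 genes were called, beside 0% of all genes. Their log2 fold changes ran from -0.27 for Cebpb to 0.87 for Stc2, 17 of 19 were above 0, and the median was 0.24 beside -0.003 for all genes tested. With ERCC scaling, which lifts the median gene, Cebpb had 0.15 and Atf5, at -0.22 before, had 0.29. The Trib3 value, 1.33, lay above all 19. Stc2 had an SE of 0.54 and Slc7a11, at 0.85, an SE of 0.45, with an adjusted p-value of 0.907 each in edgeR. Of the 19 genes 6 were higher with DTG in all 4 replicates of OPCs, beside 6.89% of 12737 genes with counts in all 8 libraries. With ERCC scaling it was 16 of the 19, beside 19.8%. The DMSO-treated OPCs were also part of the study's stage calls, a source of these symbols, so these shares are not independent evidence. Among the 6 was Atf4, with ratios of 1.21, 1.07, 1.12 and 1.33.

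**Figure D4:**
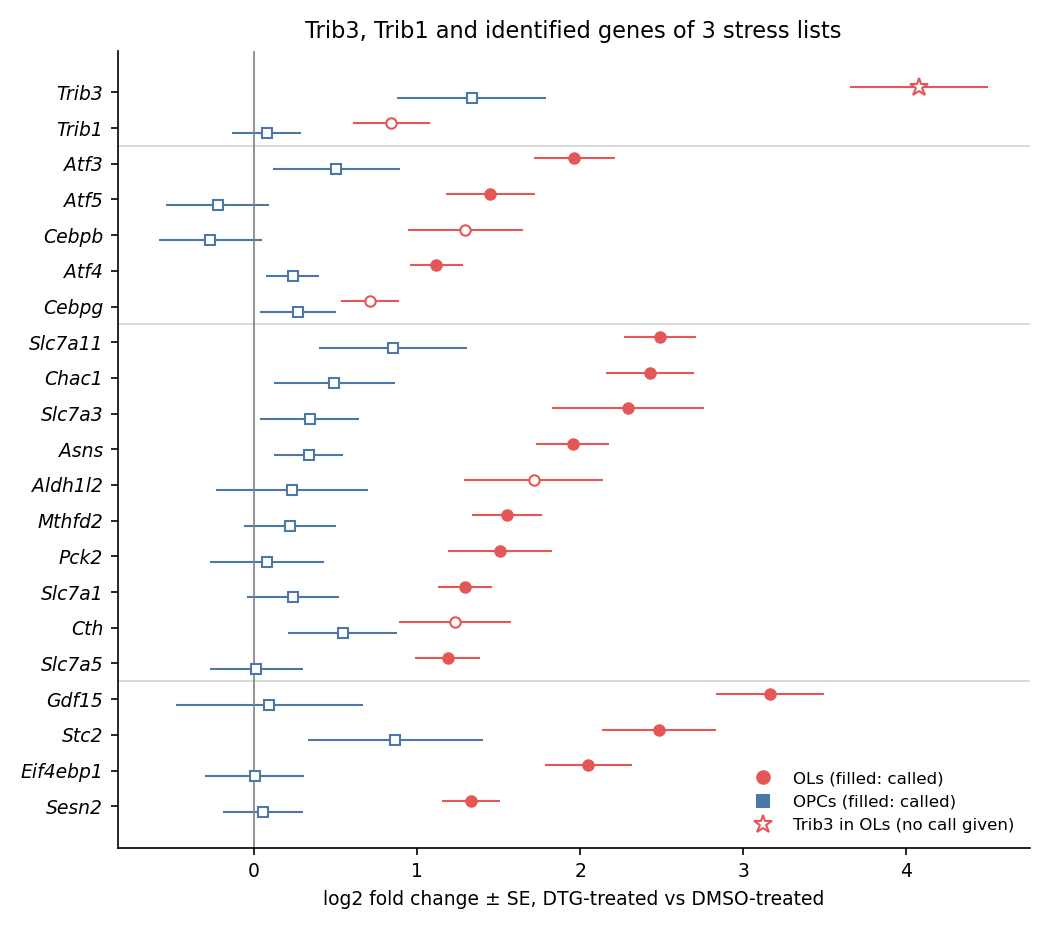
Log2 fold change with its SE, DTG-treated against DMSO-treated cells, for Trib3, Trib1 and the 19 identified genes of 3 stress lists, with OLs in red and OPCs in blue. Filled symbols passed both thresholds of a call, and Trib3 in OLs is an open star because the gene was chosen on that contrast. In OLs 15 of the 19 genes are filled and in OPCs none are.

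None of the 3 identified ER chaperone and degradation genes was called higher in DTG-treated OLs. Symbols come mainly from genes the study called on these samples, so these 3 do not stand for the whole list. Of 16 listed, 3 were identified, and in DTG-treated OLs Sdf2l1, an ER-resident partner of the chaperone machinery, fell by 1.11 on the log2 scale (SE 0.18, adjusted p-value 0.0104 in edgeR), and by 0.62 with ERCC scaling, where it was not called. Hsp90b1, the ER form of HSP90, had -0.52 and an adjusted p-value of 0.15, and Edem1, which hands misfolded glycoproteins to degradation, had 0.32 and 0.553. The log2 fold change of Eif2s1, the alpha subunit of eIF2, was -0.02 with an adjusted p-value of 0.975. The kinases of eIF2 are not analysed here, since no identifier was given for them.

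Among the identified binding partners of the TRIB3 protein, Acacb, an acetyl-CoA carboxylase, had a log2 fold change of 1.17 with DTG in OLs, an SE of 0.29 and an adjusted p-value of 0.0916 in edgeR, and 0.00495 with replicates as a block. Bmpr2, a receptor for bone morphogenetic proteins, had 0.31 and an adjusted p-value of 0.586. With differentiation under DMSO Acacb rose by 1.496 while Bmpr2 fell by 1.33 on the log2 scale, and with ERCC scaling Acacb had 0.12 and was not called. Symbols of these genes too come mainly from the study's calls, so their stage changes under DMSO are not independent evidence.

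Several of these genes differed between the stages without treatment, a comparison in which Trib3 was not called. Without treatment, OLs had higher Atf3, Atf5, Chac1, Pck2 and Stc2 than OPCs, with log2 fold changes of 1.89, 1.65, 1.30, 1.10 and 1.66, and lower Cebpg and Mthfd2, at -1.18 and -1.39, all called. These are 7 of the 19 genes, beside 24.9% of all genes tested, and since the symbols are those of genes the study called on these samples, by stage among others, the count is not independent evidence. These calls rest on few libraries for some: leaving out 1 library at a time kept the call of Atf3 in 8 of 8 fits, of Atf5 in 5, of Chac1 and Stc2 in 3 and of Pck2 in 2. With ERCC scaling 0 of the 19 genes were called higher in untreated OLs. The log2 fold change of Atf4 with stage was 0.23 without treatment and 0.18 under DMSO, with adjusted p-values of 0.414 and 0.38 in edgeR, and with ERCC scaling it turned to -0.56 and -1.30.

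The named genes whose log2 CPM was most like that of Trib3 over the 22 libraries with the same annotation were Asns (Pearson r 0.91), Pck2 (0.90), Slc7a3 (0.90), Chac1 (0.89), Stc2 (0.89), Creb3l1 (0.88), Nmnat3 (0.87), Mt-nd3 (0.87), Slc7a7 (0.83) and Eif4ebp1 (0.83). They were taken from 2106 named genes, and 10 genes without a name here lay above the last of them among all 14045. The points share libraries and depth, and the 4 DTG-treated OL libraries stand far from the rest, so these values are a description. Within the 11 OPC libraries the r of the same genes was 0.34 to 0.80, and after the mean of each condition was taken off it was 0.20 to 0.79 over the 22 libraries. With the OL libraries alone, 4 of these 10 genes were among the 10 most like Trib3. Creb3l1, an ER-bound transcription factor, had an r of 0.98 within the 11 OL libraries.

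Trib1 shows how stage enters this measure. Over all 22 libraries its r with Trib3 was -0.25, since OPCs held 3.87 to 4.82 log2 CPM of it, and within the 11 OL libraries it was 0.95. Mbp, Mog and Enpp6 had r from 0.32 to 0.36 over all libraries and from -0.84 to -0.68 within OLs. Within OLs the DTG-treated libraries stand far from the rest, so these values follow treatment. After the mean of each condition was taken off, r over the 22 libraries was 0.17 for Trib1. It was then -0.07 for Mog, -0.51 for Mbp and -0.61 for Enpp6.

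**Figure D5:**
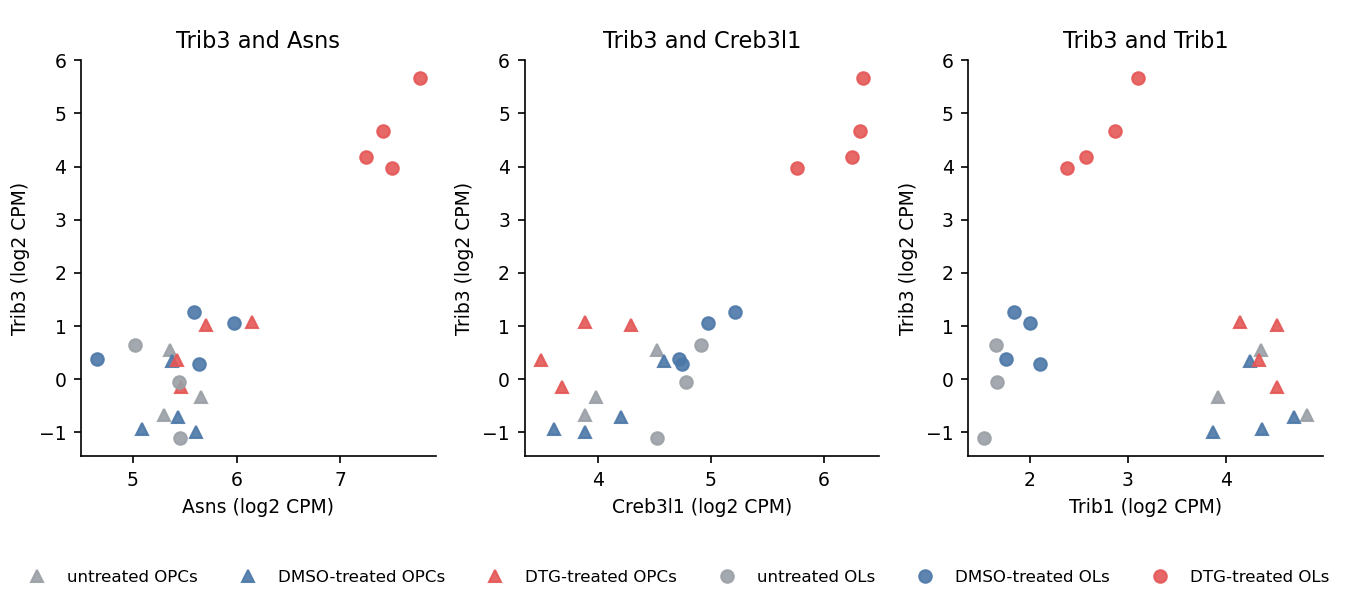
Trib3 against Asns, Creb3l1 and Trib1, each in log2 CPM with a prior count of 2, in 22 libraries. Triangles are OPCs and circles are OLs, coloured by treatment. The 4 DTG-treated OL libraries stand at the top of each panel, and in the right panel the OPC libraries form a separate group of high Trib1 and low Trib3.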

How the data were processed

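RNA of 24 cultures in 6 conditions was sequenced. The authors enriched poly(A) RNA, added ERCC transcripts to equal amounts of total RNA, aligned reads with STAR 2.5.2b and counted unique reads in exons with featureCounts of Subread 1.5.2. The deposited values are raw counts per gene and library, without normalization and without pooling. Symbols were taken from the study's supplementary tables, which name 2107 identifiers, nearly all of them genes called on these samples.

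In R 4.3.3, edgeR 4.0.16 (TMM, filterByExpr, glmQLFit without the legacy option, glmQLFTest, Benjamini-Hochberg over all genes) was run on the 8 libraries of each comparison, without ERCC counts. Alternatives were DESeq2 1.42.0, its size factors, no filter, TMM without mitochondrial genes, ERCC scaling, all libraries in 1 fit, a replicate block and leaving out each library. The fit was tested on simulated data. Exact permutation tests used log2 CPM. Named genes are Trib3, the fixed lists, and the 10 named genes most like Trib3. The gene and the lists were chosen with earlier results of these data known. One listed gene is not reported here.

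Same-numbered libraries share a date, and for replicates 2 and 3 a letter, in the library names of the labels, which is where the pairing comes from. The study counts independent litters as replicates. The correlation across genes of their deviations from group means was 0.36, 0.36, 0.30 and 0.03 between DMSO-treated and DTG-treated OLs and 0.64, -0.07, 0.52 and 0.79 in OPCs. Between the stages it was 0.35, 0.03, 0.09 and 0.44 under DMSO and 0.30, -0.03, 0.08 and -0.29 under DTG. Libraries with different numbers were not correlated for comparison, so these values cannot tell which numbers are paired.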

Additional observations from a re-analysis of the deposited data

Results flagged for a closer look

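The Trib3 level of DMSO-treated OPC replicate 4, 1.18 CPM, lay far from the other 3 libraries of its condition, with a gap to the nearest of 0.865 of the whole range, above Dixon's 95% critical value for 4 samples. It rests on 16 counts, against 6 to 8 in the others. Of 14 sets of 4 values examined this was the 1 that passed, and chance passes about 1 in 20. Without this library the log2 fold change of DTG-treated against DMSO-treated OPCs was 1.81. The flag rests on TMM scaling: with ERCC scaling replicates 1 to 4 of this condition held 0.692, 0.627, 1.19 and 0.869 CPM, with replicate 3 highest. Replicate 4 also had the highest TMM-scaled level of untreated OPCs, 1.38 CPM, and the second highest of DTG-treated OPCs, 1.96 CPM.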

How the results depend on the processing

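The log2 fold change of Trib3 in DTG-treated against DMSO-treated OLs lay between 3.60 and 4.72 in every alternative run. In OPCs it lay between 1.14 and 1.86 and was called in none of the alternatives. Scaling to ERCC counts turned the stage difference of untreated cells to -0.33, moved that of DMSO-treated cells to 0.10 and that of DTG-treated cells to 2.99, and gave means of 2.92 CPM in DTG-treated OPCs and 1.02 CPM in DMSO-treated OLs. Leaving out 1 library at a time gave 0.23 to 1.03 for untreated cells, and leaving out replicate 3 of both stages, the files with another annotation, gave 0.11 (SE 0.55). The count of genes called in OLs with DTG was 129 with DESeq2, 173 with the replicate block, 19 with ERCC scaling, 112 with no minimum fold change, and 28 to 94 without 1 library, lowest without DMSO-treated OL replicate 2. With no minimum fold change, 6941 genes were called with stage under DMSO and 4552 without treatment, and with ERCC scaling 6962 under DMSO. The causes were not tested beyond what each setting changes. The block changed no call of Trib3. Without the filter on low counts, the log2 fold change of DMSO-treated against untreated OPCs was -0.20. Depth limits Trib3 outside DTG-treated OLs, where libraries held 4 to 39 counts.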
